A study of Mus musculus with 6 samples.

Results

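The genes described here encode the machinery that copies DNA and makes its building blocks: the helicase that opens the double helix, the factors that load and fire origins, the polymerases, the sliding clamp and its loader, the single-strand binding and fragment-joining proteins, enzymes of deoxynucleotide supply, and proteins that package or repair the new strand. They were chosen by name from a list of 45, with at least 60 counts summed over the libraries. The count table of 41972 entries holds 44 of these names, and all 44 passed both that minimum and the filter on low counts applied before testing. The missing name is Tyms, thymidylate synthase, for which no entry carries the symbol. Totals over the 6 libraries ran upwards from 727 counts for Rpa3 and 761 for Fen1.

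Macrophages grown out of mouse bone marrow with the growth factor M-CSF were the source of the RNA, of which the poly(A) fraction was sequenced on an Illumina NovaSeq. In the first group the cells had been kept with extracellular vesicles (EVs, small membrane particles shed by cells) of the Aspergillus flavus strain labelled LD-F1_b, in the second with EVs of the strain labelled LD-F1, and in the third with PBS, the buffer control. All 3 groups are wild type: marrow from the leg bones of male C57BL/6 mice aged 6 weeks was grown for 6 days with 20% serum and 30% L-929 medium, then kept for 6 h with 20 µg of EVs per well or with PBS. Each group has 2 biological replicates, and the sources used here give neither the meaning of the suffix b nor whether the replicates came from separate mice, so p-values measure the spread between these libraries.

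In a dividing cell, the origin recognition complex, with Cdc6 and Cdt1, loads rings of MCM2 to MCM7 onto DNA in G1 phase. The kinase Cdc7 with its partner Dbf4 then helps to turn each ring, joined by Cdc45 and the GINS complex, into the active CMG helicase. Many of these genes are transcribed in late G1 and S phase under E2F transcription factors. Macrophages grown with M-CSF divide in culture, and inflammatory stimuli such as bacterial lipopolysaccharide are known to slow their division.

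Promoter stretches are shown because many of the members are textbook E2F targets. Whether E2F factors had a part in the changes described below was not tested. RefSeq windows of build GRCm38.p6, from 250 bases before to 50 after each annotated start, were on hand for 37 of the 44 genes. Each line gives the 150 bases before the start, 5′ to 3′ on the gene's strand, and capitals mark the letters TTTNNCGC or their reverse complement GCGNNAAA, an E2F-type motif searched on both strands. Mcm6, a helicase subunit, held the most matches, 2 of which overlap. The stretch of Cdc6 (loading factor) and that of Pola1 (catalytic subunit of polymerase alpha) each held 1 match. Rrm2 (small subunit of ribonucleotide reductase) had the lowest fold change with LD-F1 EVs, and Chaf1a (large subunit of chromatin assembly factor 1) with LD-F1_b EVs. Neither stretch held a match. E2F-type sites of other letters were not searched. The Chaf1a stretch holds ccgccaaa, which misses GCGNNAAA by its opening letter alone.
Mcm6, chr1:128359706-128359855, minus strand: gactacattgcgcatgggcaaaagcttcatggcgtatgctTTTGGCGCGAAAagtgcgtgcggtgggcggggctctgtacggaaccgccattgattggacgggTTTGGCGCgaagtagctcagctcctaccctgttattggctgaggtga
Cdc6, chr11:98908001-98908150, plus strand: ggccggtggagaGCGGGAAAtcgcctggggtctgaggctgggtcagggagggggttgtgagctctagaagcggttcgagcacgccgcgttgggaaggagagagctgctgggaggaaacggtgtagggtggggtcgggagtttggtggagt
Pola1, chrX:93632156-93632305, minus strand: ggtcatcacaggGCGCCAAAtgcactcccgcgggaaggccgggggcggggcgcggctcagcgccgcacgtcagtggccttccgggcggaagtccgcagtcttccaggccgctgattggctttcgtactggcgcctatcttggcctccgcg
Rrm2, chr12:24708104-24708253, plus strand: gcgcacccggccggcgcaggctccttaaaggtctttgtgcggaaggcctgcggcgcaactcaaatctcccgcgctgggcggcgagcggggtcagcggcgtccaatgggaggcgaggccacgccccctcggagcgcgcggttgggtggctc
Chaf1a, chr17:56040266-56040415, plus strand: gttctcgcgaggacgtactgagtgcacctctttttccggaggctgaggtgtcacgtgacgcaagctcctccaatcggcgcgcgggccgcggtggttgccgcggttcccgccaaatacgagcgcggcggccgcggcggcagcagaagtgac
Across whole windows, TTTNNCGC was found in 13 of the 37 genes (35.1%) and in 5.93% of all 27025 genes with a window. CCAAT, the letters bound by NF-Y, was found in 22 of 37 (59.5%) against 41.1% of all genes. TTTGAA, the letters of the CHR element of late cell cycle genes, was found in 6 of 37 (16.2%) against 20.2%. Windows of the replication genes were richer in G and C (median 62.7%) than all windows (52.7%), and a match of letters is no evidence of a bound site.

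Total counts per library lay between 13722215 and 15277997, and values are given as normalised CPM, counts scaled to a common total after TMM scaling of the library totals. A floor of 3 counts corresponds to 0.189 to 0.225 normalised CPM and covers counting error only. Pearson's r of log2 values between replicates was 0.989 for LD-F1_b, 0.984 for LD-F1 and 0.991 for PBS across 12740 tested genes, which are not independent replicates. Between the 2 LD-F1 libraries the log2 difference (replicate 2 minus 1) followed gene length with a Spearman's rho of -0.332, while rho was -0.096 between the LD-F1_b and -0.009 between the PBS libraries, and across the 44 replication genes rho was -0.498 for LD-F1. The part of gene length in the results was not tested beyond refits with a gene length correction. The macrophage markers Adgre1, Csf1r, Cd68, Spi1 and Mpeg1 were abundant in every library (at least 384.9 normalised CPM), but Itgam had at most 4 counts and Mertk at most 10. The summed macrophage list was 3727 and 3826 normalised CPM with LD-F1_b EVs, 3674 and 3477 with LD-F1 EVs and 3651 and 3635 with PBS. Summed neutrophil markers reached at most 3.34 normalised CPM, with Ly6g, S100a9 and Retnlg at 0 counts, and summed progenitor markers at most 0.829.

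The replication genes as a group were lower with both EVs, and none was higher. Their summed level was 3146 and 3247 normalised CPM with LD-F1_b EVs, 2529 and 2742 with LD-F1 EVs, and 4370 and 4334 with PBS. They took 0.311% and 0.322% of all counts with LD-F1_b EVs, 0.246% and 0.264% with LD-F1 EVs and 0.456% and 0.450% with PBS. No library of one group fell within the range of another. In bulk RNA, fewer dividing cells and less of these transcripts per cell cannot be told apart.

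**Figure D1:**
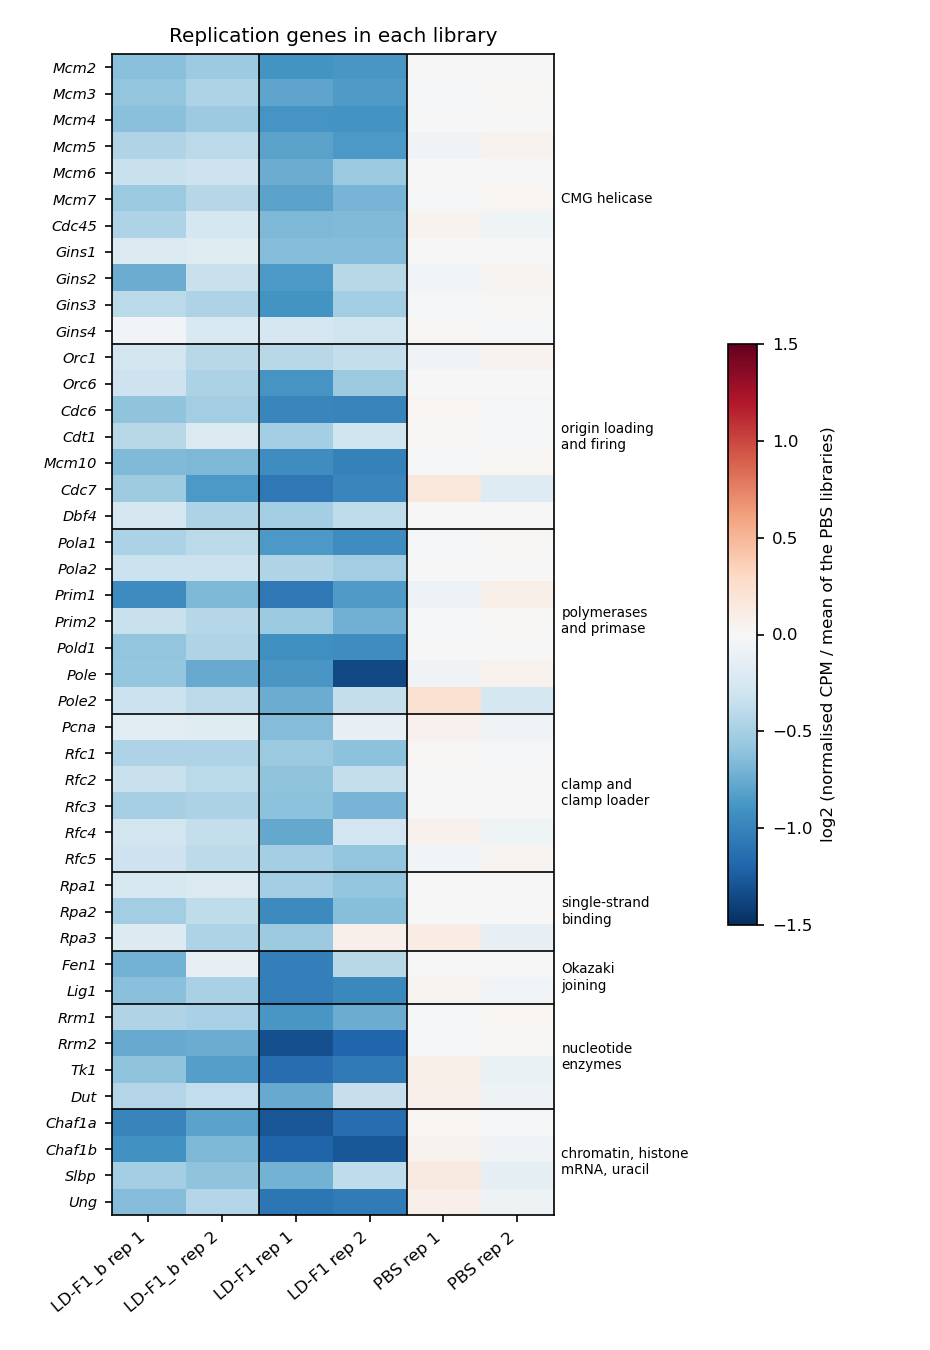
Heat map of the 44 replication genes (rows, by sub-complex) in the 6 libraries (columns). Colour is log2 of normalised CPM over the mean of the PBS libraries, blue for lower and red for higher. The LD-F1 columns are the bluest, with summed levels of 2529 and 2742 normalised CPM, and the LD-F1_b columns lie between them and PBS.

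With LD-F1 EVs, 38 of the 44 genes fell and 0 rose at a Benjamini-Hochberg adjusted p under 0.05 (edgeR's quasi-likelihood test over all tested genes, used throughout). The background was 9.87% of all tested genes lower and 11.4% higher. The median log2 fold change was -0.69, a median change of -38.1%, and the median of all tested genes was 0.01. In 43 of 44 genes both LD-F1 libraries lay below both PBS libraries, against 29.6% of all tested genes (29.9% lay above without overlap). The 6 genes that did not pass were Gins4, Orc1, Pole2, Pcna, Rpa3 and Fen1. Of the 38 calls, 26 held under each of the 14 other settings tried, and without PBS replicate 1 or PBS replicate 2 the number called was 29.

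With LD-F1_b EVs, 26 of the 44 genes fell and 0 rose, against a background of 4.54% lower and 6.44% higher. The median log2 fold change was -0.44, a median change of -26.5%, with 0.01 for all tested genes. In all 44 genes both LD-F1_b libraries lay below both PBS libraries, against 30.0% of all tested genes (30.4% lay above). The median of the 44 genes stayed between -0.47 and -0.44 on leaving out any 1 library. The count called was lower without any 1 LD-F1_b or PBS library, and so was the number of all tested genes called. Each such fit leaves 1 library in a group, so fewer calls there do not show that the result rests on that library. Without either LD-F1 library, which enters only the estimate of the spread, both numbers were higher. The calls of Mcm2, Mcm4, Mcm10, Rrm2, Chaf1a and Chaf1b held under all 14 settings, and each of the other 20 was lost on dropping at least 1 of the LD-F1_b and PBS libraries (adjusted p up to 0.366, for Rfc5). Both EV groups are set against the same PBS libraries, so these counts are not independent of each other.

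**Figure D2:**
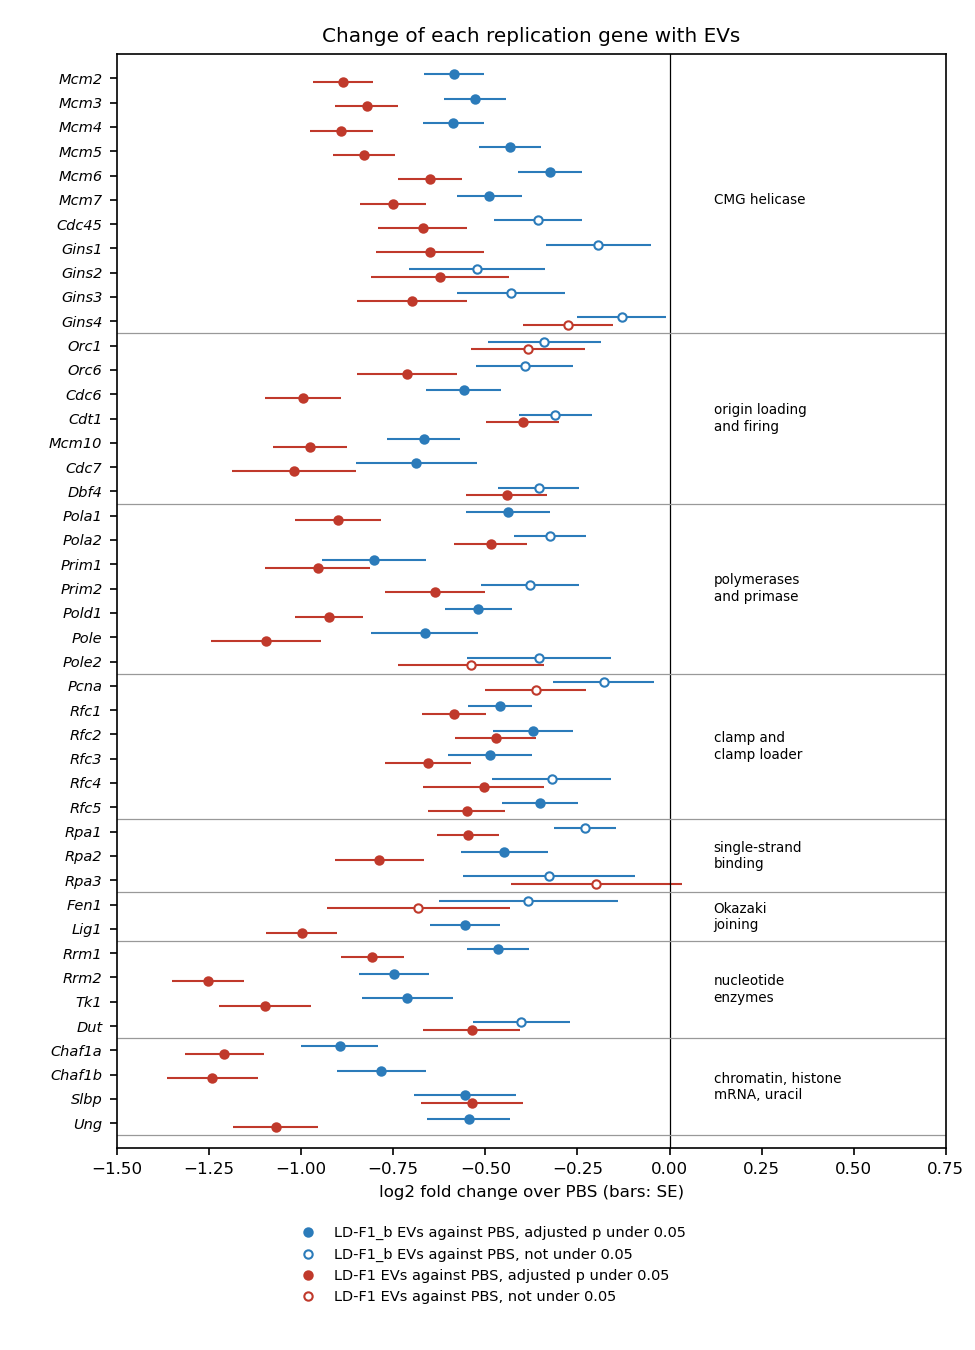
Log2 fold change over PBS (horizontal axis, bars are the SE) of each of the 44 replication genes, LD-F1_b EVs in blue above LD-F1 EVs in red. Filled points have an adjusted p under 0.05. All points lie left of 0, and 42 of the 44 genes have the LD-F1_b point nearer to 0 than the LD-F1 point.

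Of the 11 genes of the CMG helicase, 10 fell with LD-F1 EVs and 6 with LD-F1_b EVs. Mcm2, one of the ring subunits, had 169 and 178 normalised CPM with LD-F1_b EVs, 139 and 142 with LD-F1 EVs and 259 and 261 with PBS. The 3 groups did not overlap, and the log2 fold change was -0.89 ± 0.08 (SE) with LD-F1 EVs (adjusted p = 1.28e-05) and -0.59 ± 0.08 with LD-F1_b EVs (adjusted p = 0.000660). Mcm4, the ring subunit with the lowest fold change of the helicase in both comparisons, had 118 and 125 normalised CPM with LD-F1_b EVs, 98.6 and 97.6 with LD-F1 EVs and 183 and 181 with PBS. Its log2 fold change was -0.89 with LD-F1 EVs and -0.59 with LD-F1_b EVs. Mcm5, which pairs with Mcm2 at the gate of the ring, had 199 and 206 normalised CPM with LD-F1_b EVs, 157 and 151 with LD-F1 EVs and 264 and 283 with PBS. Again each group stood apart, with log2 fold changes of -0.83 ± 0.08 (adjusted p = 2.54e-05) for LD-F1 and -0.43 ± 0.08 (adjusted p = 0.00557) for LD-F1_b. Mcm3, Mcm6 and Mcm7 fell with both EVs, by 0.65 to 0.82 on the log2 scale with LD-F1 EVs and by 0.32 to 0.53 with LD-F1_b EVs.

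Cdc45, the helicase cofactor that joins the ring at firing, had 28.7 and 32.9 normalised CPM with LD-F1_b EVs, 24.7 and 24.9 with LD-F1 EVs and 41.1 and 37.9 with PBS. It fell with LD-F1 EVs (-0.67 ± 0.12, adjusted p = 0.00187) and missed the threshold with LD-F1_b EVs (-0.36 ± 0.12, adjusted p = 0.0803). The GINS complex, which bridges the ring and Cdc45, was less even. Gins1, Gins2 and Gins3 fell with LD-F1 EVs (log2 fold changes -0.65, -0.62 and -0.70), whereas no GINS gene passed with LD-F1_b EVs. Gins1 had 15.8 and 16.2 normalised CPM with LD-F1_b EVs, 11.6 and 11.7 with LD-F1 EVs and 18.3 and 18.2 with PBS. Gins2 had 12.7 and 16.9 with LD-F1_b EVs, 11.7 and 15.9 with LD-F1 EVs and 20.6 and 22.0 with PBS, so the EV groups overlapped each other and lay below PBS. Gins4 had the fold changes nearest to 0 of the helicase genes in both comparisons with PBS. Its level was 30.3 and 26.5 normalised CPM with LD-F1_b EVs, 26.1 and 25.3 with LD-F1 EVs and 31.5 and 30.7 with PBS, with log2 fold changes of -0.28 ± 0.12 (adjusted p = 0.139) for LD-F1 and -0.13 ± 0.12 (adjusted p = 0.564) for LD-F1_b. The LD-F1 calls of Gins1 and Gins2 were lost without PBS replicate 1 (adjusted p = 0.0757 and 0.111) or PBS replicate 2 (0.0690 and 0.178), that of Gins2 also without LD-F1 replicate 1 (0.0845), and that of Gins3 without PBS replicate 2 (0.0507). For LD-F1_b EVs the helicase count of 6 was 2 without LD-F1_b replicate 1 and 3 without PBS replicate 1 or PBS replicate 2.

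Origin loading and firing genes fell in 6 of 7 cases with LD-F1 EVs and in 3 of 7 with LD-F1_b EVs. Cdc6, the ATPase that helps to load MCM rings, had 41.0 and 43.5 normalised CPM with LD-F1_b EVs, 31.5 and 30.9 with LD-F1 EVs and 63.4 and 61.0 with PBS. The groups were well apart, and its log2 fold change was -0.99 ± 0.10 with LD-F1 EVs (adjusted p = 3.33e-05) and -0.56 ± 0.10 with LD-F1_b EVs (adjusted p = 0.00415). Mcm10, which acts when the helicase is activated, had 44.9 and 44.6 normalised CPM with LD-F1_b EVs, 37.2 and 35.1 with LD-F1 EVs and 69.5 and 72.6 with PBS. Its change was -0.98 ± 0.10 on the log2 scale with LD-F1 EVs (adjusted p = 3.09e-05) and -0.67 ± 0.10 with LD-F1_b EVs (adjusted p = 0.00105). Cdc7, the firing kinase, had the lowest fold change of these 7 genes in both comparisons with PBS: 19.1 and 15.3 normalised CPM with LD-F1_b EVs, 13.2 and 14.1 with LD-F1 EVs and 31.1 and 24.3 with PBS. It fell by 1.02 on the log2 scale with LD-F1 EVs and by 0.69 with LD-F1_b EVs, while its activating partner Dbf4 fell by 0.44 with LD-F1 EVs and had -0.36 ± 0.11 (adjusted p = 0.0600) with LD-F1_b EVs.

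Cdt1, the second loading factor, had 172 and 197 normalised CPM with LD-F1_b EVs, 161 and 186 with LD-F1 EVs and 231 and 227 with PBS. The EV groups overlapped each other, and only LD-F1 EVs passed (-0.40 ± 0.10, adjusted p = 0.0129, against -0.31 ± 0.10 and 0.0669 for LD-F1_b). Orc6, a subunit of the origin recognition complex, had 31.4 and 28.0 normalised CPM with LD-F1_b EVs, 21.1 and 26.5 with LD-F1 EVs and 38.7 and 39.3 with PBS. Orc6 fell with LD-F1 EVs (-0.71 ± 0.13, adjusted p = 0.00246) and had -0.39 ± 0.13 (adjusted p = 0.0826) with LD-F1_b EVs. Orc1, the largest subunit of that complex, had 13.6 and 12.3 normalised CPM with LD-F1_b EVs, 12.3 and 12.8 with LD-F1 EVs and 15.8 and 17.0 with PBS. Both EV groups lay below PBS and overlapped each other, and neither test passed (adjusted p = 0.103 for LD-F1 and 0.195 for LD-F1_b). The LD-F1 calls of Cdt1 and Dbf4 were lost without PBS replicate 1 (adjusted p = 0.122 and 0.0995) or PBS replicate 2 (0.0933 and 0.109), and that of Dbf4 also with the gene length correction. For LD-F1_b EVs the count of 3 was 1 if replicate 1 of LD-F1_b or of PBS was dropped, and 6 without either LD-F1 library.

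Polymerase and primase genes fell in 6 of 7 cases with LD-F1 EVs and in 4 of 7 with LD-F1_b EVs. Pole, the catalytic subunit of the leading-strand polymerase epsilon, had 35.5 and 31.6 normalised CPM with LD-F1_b EVs, 29.1 and 20.8 with LD-F1 EVs and 51.2 and 55.2 with PBS. It had the lowest fold change of these 7 genes with LD-F1 EVs (-1.10 ± 0.15, adjusted p = 0.000253) and had -0.67 ± 0.15 (adjusted p = 0.0116) with LD-F1_b EVs. Its LD-F1 libraries differed more than those of any other member in the direction of a higher replicate 1 (log2 difference -0.49), and at 11154 bases it is a long transcript. Pola1, whose promoter stretch holds 1 match above, had 27.6 and 29.2 normalised CPM with LD-F1_b EVs, 21.1 and 20.1 with LD-F1 EVs and 38.1 and 38.9 with PBS. Its groups stood apart, with log2 fold changes of -0.90 ± 0.12 (adjusted p = 0.000184) for LD-F1 and -0.44 ± 0.11 (adjusted p = 0.0279) for LD-F1_b. Pold1, the catalytic subunit of the lagging-strand polymerase delta, had 84.7 and 93.8 normalised CPM with LD-F1_b EVs, 67.6 and 67.2 with LD-F1 EVs and 128 and 128 with PBS. It fell by 0.92 on the log2 scale with LD-F1 EVs and by 0.52 with LD-F1_b EVs.

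Prim1, the catalytic primase subunit, had 19.8 and 23.8 normalised CPM with LD-F1_b EVs, 18.1 and 21.1 with LD-F1 EVs and 35.6 and 40.4 with PBS. The EV groups overlapped, and it fell with both, by 0.96 with LD-F1 EVs and by 0.80 with LD-F1_b EVs, the lowest fold change of the 7 in that comparison. Pola2, the second subunit of polymerase alpha, had the fold changes nearest to 0 of the 7 genes in both comparisons with PBS, with levels of 48.7 and 48.6 normalised CPM with LD-F1_b EVs, 44.6 and 42.5 with LD-F1 EVs and 61.1 and 60.8 with PBS. The fall with LD-F1 EVs passed (-0.49 ± 0.10, adjusted p = 0.00404) and the value with LD-F1_b EVs missed the threshold (-0.32 ± 0.10, adjusted p = 0.0548). Prim2, the regulatory primase subunit, fell by 0.64 with LD-F1 EVs and had -0.38 ± 0.13 (adjusted p = 0.0983) with LD-F1_b EVs. Pole2, an accessory subunit of polymerase epsilon, passed in neither comparison (-0.54 ± 0.20, adjusted p = 0.0743, for LD-F1 and -0.35 ± 0.19, adjusted p = 0.294, for LD-F1_b). The LD-F1 fall of Pole2 did pass with unscaled library totals, without a filter and with the gene length correction. The LD-F1 calls of Pola2 and Prim2 were lost without PBS replicate 2 (adjusted p = 0.0540 and 0.0641), that of Pola2 also without PBS replicate 1 (0.0608), and Pole2 passed without LD-F1 replicate 2 or PBS replicate 2. For LD-F1_b EVs the count of 4 was 0 without LD-F1_b replicate 1 or PBS replicate 2, 1 without PBS replicate 1 and 2 without LD-F1_b replicate 2.

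Among the clamp and its loader, 5 of 6 genes fell with LD-F1 EVs and 4 of 6 with LD-F1_b EVs. Pcna, the sliding clamp that tethers polymerases to DNA, had the fold changes nearest to 0 of the 6 genes in both comparisons with PBS. It had 263 and 261 normalised CPM with LD-F1_b EVs, 189 and 272 with LD-F1 EVs and 309 and 284 with PBS. The LD-F1 libraries were far apart, 1 on either side of the LD-F1_b pair. Neither test passed (-0.36 ± 0.14, adjusted p = 0.0849, for LD-F1 and -0.18 ± 0.14, adjusted p = 0.475, for LD-F1_b). The LD-F1 result depended on the method, since Pcna passed with unscaled library totals, under DESeq2, without a filter and with the gene length correction. With LD-F1_b EVs it passed when only the groups compared were fitted. Without LD-F1 replicate 2 Pcna passed with LD-F1 EVs, and without either LD-F1 library it passed with LD-F1_b EVs. Rfc1, the large subunit of the loader, had 92.5 and 92.5 normalised CPM with LD-F1_b EVs, 86.4 and 83.3 with LD-F1 EVs and 129 and 126 with PBS. Its log2 fold change was -0.59 ± 0.09 (adjusted p = 0.000484) with LD-F1 EVs and -0.46 ± 0.09 (adjusted p = 0.00493) with LD-F1_b EVs. Rfc3, a small loader subunit with the lowest fold change of the 6, had 26.4 and 26.6 normalised CPM with LD-F1_b EVs, 24.3 and 22.8 with LD-F1 EVs and 36.9 and 37.4 with PBS, and fell by 0.66 with LD-F1 EVs and by 0.49 with LD-F1_b EVs.

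The small subunits Rfc2 and Rfc5 fell with both EVs, by 0.47 and 0.55 with LD-F1 EVs and by 0.37 and 0.35 with LD-F1_b EVs, the last 2 with adjusted p of 0.0497 each and both lost under DESeq2, that of Rfc2 also with the gene length correction. Rfc5 had 45.4 and 42.6 normalised CPM with LD-F1_b EVs, 39.4 and 37.3 with LD-F1 EVs and 54.6 and 57.7 with PBS. Rfc2 had 49.5 and 47.3 with LD-F1_b EVs, 41.2 and 48.9 with LD-F1 EVs and 62.1 and 63.0 with PBS, and its EV groups overlapped. Rfc4 fell with LD-F1 EVs (-0.50 ± 0.16, adjusted p = 0.0470), a call lost on leaving out any 1 library but LD-F1 replicate 2 (adjusted p from 0.0911 without LD-F1_b replicate 1 to 0.266 without PBS replicate 1), with only the groups compared and under DESeq2, and did not pass with LD-F1_b EVs (adjusted p = 0.253). The LD-F1 call of Rfc2 was lost without PBS replicate 1 (adjusted p = 0.0768) or PBS replicate 2 (0.0874), and that of Rfc5 without PBS replicate 2 (0.0512). Of the 6 genes, 3 fell with LD-F1 EVs without PBS replicate 1 and 2 without PBS replicate 2. The LD-F1_b count of 4 was 0 on dropping any 1 LD-F1_b or PBS library.

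Replication protein A coats the single strands that the helicase exposes. Of its 3 subunits, 2 fell with LD-F1 EVs and 1 with LD-F1_b EVs, and differences between them were not tested. Rpa2 had 49.0 and 54.2 normalised CPM with LD-F1_b EVs, 36.2 and 45.3 with LD-F1 EVs and 70.1 and 70.7 with PBS, with no overlap, and fell with LD-F1 EVs (-0.79 ± 0.12, adjusted p = 0.000587) and with LD-F1_b EVs (-0.45 ± 0.12, adjusted p = 0.0303). Rpa1, the largest subunit, had 122 and 124 normalised CPM with LD-F1_b EVs, 101.5 and 96.2 with LD-F1 EVs and 144 and 145 with PBS. Only its fall with LD-F1 EVs passed (-0.55 ± 0.09, adjusted p = 0.000652), the value for LD-F1_b EVs being -0.23 ± 0.08 (adjusted p = 0.112). Rpa3, the small subunit, had 8.07 and 6.77 normalised CPM with LD-F1_b EVs, 6.37 and 9.81 with LD-F1 EVs and 10.1 and 8.57 with PBS. Its LD-F1 and PBS libraries overlapped, the 1 exception among the 44 genes, and the 95% interval of the log2 fold change, -0.70 to 0.31 with LD-F1 EVs, takes in the median of the set. The LD-F1_b call of Rpa2 was lost on dropping any 1 LD-F1_b or PBS library (adjusted p up to 0.271).

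Lig1, the ligase that seals Okazaki fragments of the lagging strand, had 73.4 and 80.8 normalised CPM with LD-F1_b EVs, 55.6 and 57.8 with LD-F1 EVs and 116 and 110 with PBS. It fell with LD-F1 EVs (-0.998 ± 0.097, adjusted p = 1.83e-05) and with LD-F1_b EVs (-0.56 ± 0.10, adjusted p = 0.00273), the last lost without LD-F1_b replicate 1 or PBS replicate 1 (adjusted p up to 0.0790). Fen1, the nuclease that trims those fragments, is a low count gene here: 6.61 and 9.95 normalised CPM with LD-F1_b EVs, 5.32 and 8.11 with LD-F1 EVs and 10.8 and 10.8 with PBS. Both EV groups lay below PBS, and neither passed (-0.68 ± 0.25, adjusted p = 0.0729, for LD-F1 and -0.38 ± 0.24, adjusted p = 0.370, for LD-F1_b). The LD-F1 fall of Fen1 did pass with unscaled library totals, without a filter, with a replicate block and with the gene length correction. Without LD-F1 replicate 2 Fen1 passed with LD-F1 EVs.

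Enzymes of deoxynucleotide supply fell in 4 of 4 cases with LD-F1 EVs and in 3 of 4 with LD-F1_b EVs. Rrm2 lies on chromosome 12 from 23078505 to 23084410 as the table gives it. It had 64.3 and 65.2 normalised CPM with LD-F1_b EVs, 43.5 and 47.9 with LD-F1 EVs and 108 and 110 with PBS. The 3 groups were widely apart, and its change with LD-F1 EVs was the lowest of all 44 genes (-1.25 ± 0.10, a change of -58.0%, adjusted p = 3.13e-06), with -0.75 ± 0.10 (-40.5%, adjusted p = 0.000364) for LD-F1_b EVs. Rrm1, the large subunit of the same reductase, had 180 and 176 normalised CPM with LD-F1_b EVs, 134 and 147 with LD-F1 EVs and 240.4 and 250.4 with PBS. Both falls passed, with LD-F1 EVs (-0.81 ± 0.09, adjusted p = 3.66e-05) and with LD-F1_b EVs (-0.47 ± 0.08, adjusted p = 0.00411). The ratio of Rrm2 to Rrm1 counts was 0.357 and 0.372 with LD-F1_b EVs, 0.324 and 0.327 with LD-F1 EVs and 0.448 and 0.439 with PBS, so the libraries of the 3 groups did not overlap in it either.

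Tk1, the thymidine kinase of the salvage route, had 33.2 and 28.5 normalised CPM with LD-F1_b EVs, 22.9 and 24.3 with LD-F1 EVs and 53.9 and 47.2 with PBS. It fell with LD-F1 EVs (-1.10 ± 0.13, adjusted p = 6.89e-05) and with LD-F1_b EVs (-0.71 ± 0.12, adjusted p = 0.00287). Dut, which removes dUTP and yields the precursor of dTMP, had 52.5 and 55.3 normalised CPM with LD-F1_b EVs, 42.0 and 56.1 with LD-F1 EVs and 74.9 and 67.6 with PBS. The EV groups overlapped each other below PBS, and Dut fell with LD-F1 EVs (-0.54 ± 0.13, adjusted p = 0.0122, 0.127 without PBS replicate 1) but did not pass with LD-F1_b EVs (-0.40 ± 0.13, adjusted p = 0.0728). An entry on chromosome 5 with the identifier MGP_C57BL6NJ_G0029811 and no symbol is described in the table as Tyms, and is not counted among the 44. It had 19.8 and 17.1 normalised CPM with LD-F1_b EVs, 15.3 and 15.2 with LD-F1 EVs and 25.1 and 22.1 with PBS, falling with LD-F1 EVs (-0.63 ± 0.15, adjusted p = 0.00918) and not passing with LD-F1_b EVs (-0.35 ± 0.14, adjusted p = 0.150). For LD-F1_b EVs the enzyme count of 3 was 1 without LD-F1_b replicate 2 or PBS replicate 1.

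The 4 genes of chromatin assembly, histone mRNA processing and uracil removal fell with both EVs. Chaf1a, which lies on chromosome 17 from 59952976 to 59995808 in the table's coordinates, had 49.4 and 56.1 normalised CPM with LD-F1_b EVs, 40.4 and 44.5 with LD-F1 EVs and 99.9 and 96.3 with PBS. Its change with LD-F1_b EVs was the lowest of the 44 genes (-0.90 ± 0.10, a change of -46.2%, adjusted p = 0.000201), and with LD-F1 EVs it was -1.21 ± 0.11 (adjusted p = 8.42e-06). Chaf1b, its partner in the assembly factor that places histones on new DNA, had 27.2 and 31.9 normalised CPM with LD-F1_b EVs, 22.0 and 21.0 with LD-F1 EVs and 52.9 and 48.8 with PBS. It fell by 1.24 with LD-F1 EVs and by 0.78 with LD-F1_b EVs. Ung, the glycosylase that cuts uracil out of DNA, had 40.4 and 46.8 normalised CPM with LD-F1_b EVs, 30.0 and 30.7 with LD-F1 EVs and 67.0 and 60.3 with PBS, and fell by 1.07 on the log2 scale with LD-F1 EVs and by 0.54 with LD-F1_b EVs. Slbp, which binds the stem-loop of histone mRNAs, had 34.8 and 32.5 normalised CPM with LD-F1_b EVs, 30.2 and 37.8 with LD-F1 EVs and 54.4 and 44.5 with PBS. It fell with LD-F1 EVs (-0.54 ± 0.14, adjusted p = 0.0159) and LD-F1_b EVs (-0.56 ± 0.14, adjusted p = 0.0223), and the difference of LD-F1_b over LD-F1 was -0.02 (95% interval -0.33 to 0.29). Both calls were lost without PBS replicate 1 (adjusted p = 0.218 and 0.299), and for LD-F1_b also without either of its own libraries (0.143 and 0.224). The LD-F1_b count of 4 was 2 without LD-F1_b replicate 1 or PBS replicate 1.

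**Figure D3:**
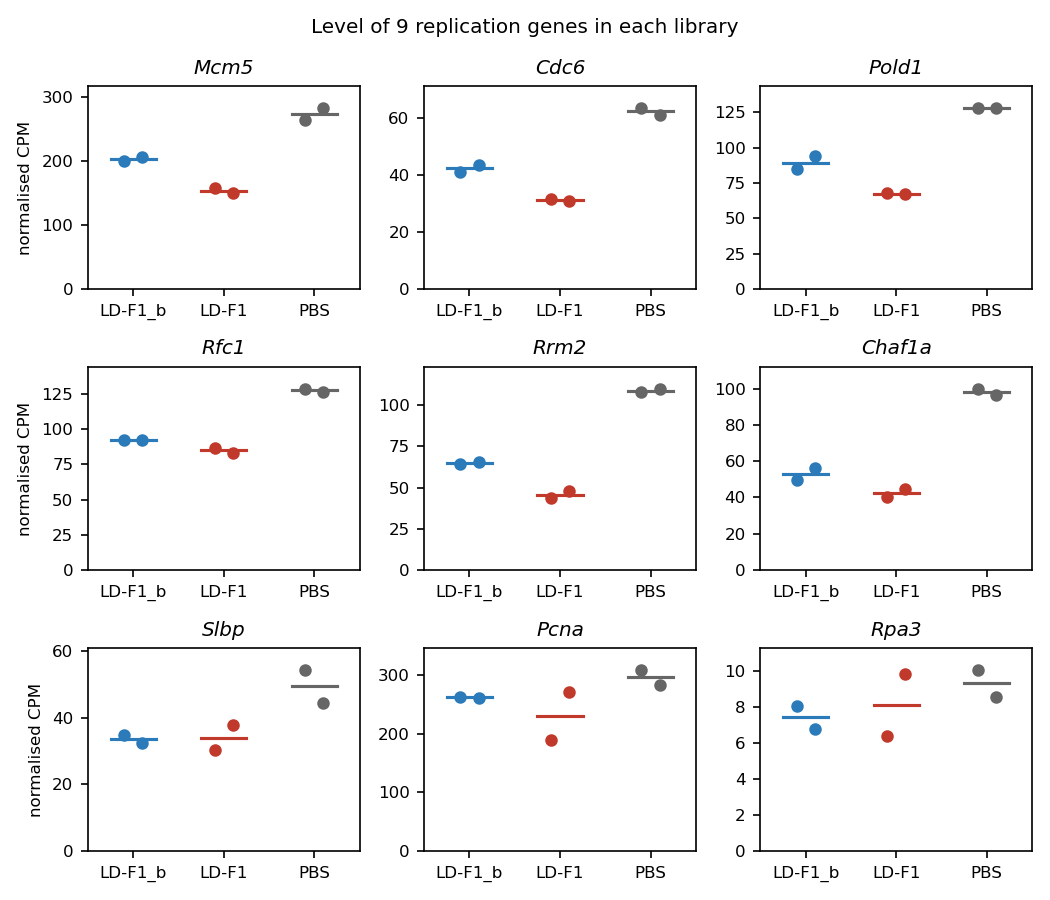
Normalised CPM (vertical axes, from 0) of 9 replication genes in each library, with groups along the horizontal axis; points are libraries and lines are group means. For Mcm5, Cdc6, Pold1, Rfc1, Rrm2 and Chaf1a the groups stand apart in the order PBS, LD-F1_b, LD-F1 from high to low, while for Slbp, Pcna and Rpa3 the LD-F1 pair spreads across the LD-F1_b pair.

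Set side by side, the sub-complexes had median log2 fold changes with LD-F1 EVs of -0.53 for the clamp and its loader, -0.55 for single-strand binding, -0.70 for the helicase, -0.71 for origin loading and firing, -0.84 for Okazaki fragment joining, -0.90 for polymerases and primase, -0.95 for nucleotide enzymes and -1.14 for the chromatin group. With LD-F1_b EVs the medians were -0.36 for the clamp and its loader, -0.33 for single-strand binding, -0.43 for the helicase, -0.39 for origin loading and firing, -0.47 for Okazaki fragment joining, -0.44 for polymerases and primase, -0.59 for nucleotide enzymes and -0.67 for the chromatin group. With LD-F1 EVs the ranges of all sub-complexes of 3 or more genes overlapped, with LD-F1_b EVs those of the clamp group and of single-strand binding each lay apart from the chromatin group, and differences between sub-complexes were not tested. Single libraries moved these medians: that of origin loading and firing with LD-F1 EVs was -0.56 without LD-F1 replicate 1 and -0.89 without LD-F1 replicate 2. Across the 44 genes, which share libraries, Spearman's rho of the log2 fold change with gene length was -0.35 for LD-F1 EVs and -0.44 for LD-F1_b EVs, and with mean level it was -0.12 and -0.09. With the gene length correction, 41 genes were called lower with LD-F1 EVs and 30 with LD-F1_b EVs. Genes with a TTTNNCGC match in the promoter window had a median log2 fold change of -0.75 with LD-F1 EVs (11 of 13 fell). Those without it had -0.70 (21 of 24 fell), and with LD-F1_b EVs the medians were -0.44 and -0.45. Genes without this match may hold E2F-type sites of other letters, which were not searched.

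**Figure D4:**
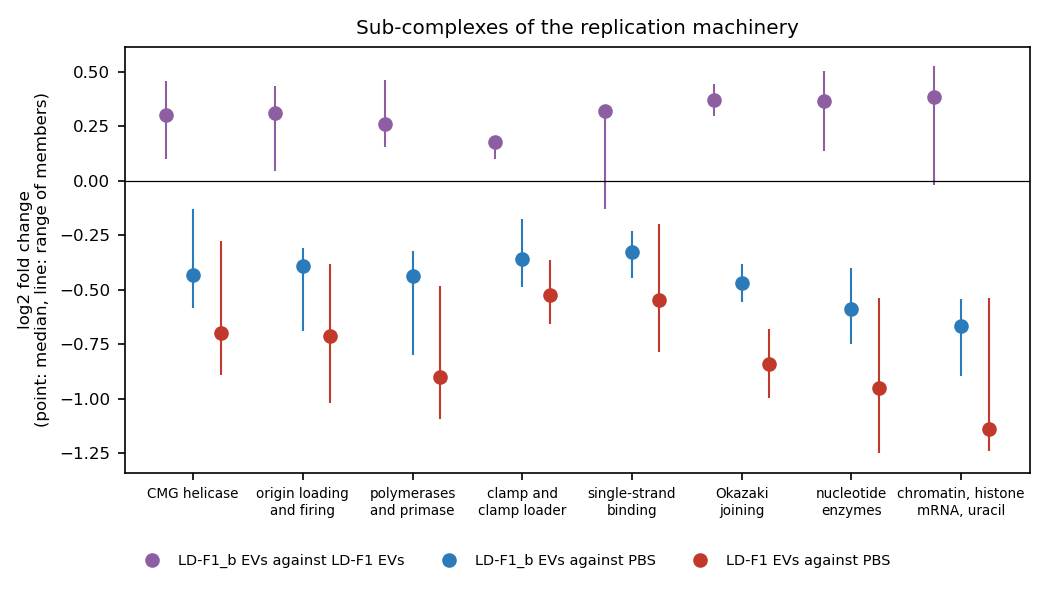
Log2 fold change (vertical axis) by sub-complex (horizontal axis); points are medians and lines run from the lowest to the highest member, in purple for LD-F1_b EVs against LD-F1 EVs, blue for LD-F1_b EVs against PBS and red for LD-F1 EVs against PBS. Every red and blue median is below 0, from -0.33 to -1.14, and every purple median is above 0, from 0.18 to 0.39.

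Between the EVs themselves, 0 of the 44 genes passed, where 0.424% of all tested genes did (0.0157% higher and 0.408% lower with LD-F1_b). At an unadjusted p under 0.05 the same edgeR test had 23 of the 44, against 1119 of all 12740 genes, and DESeq2 called 2, Mcm5 and Rrm2. The median log2 fold change of LD-F1_b over LD-F1 was 0.30, with 0.00 for all tested genes, and 42 of 44 genes had a positive value, the exceptions being Rpa3 (-0.13) and Slbp (-0.02). Both LD-F1_b libraries lay above both LD-F1 libraries in 31 genes, against 17.0% of all tested genes. The genes nearest to the threshold were Rrm2 (0.50 ± 0.10, adjusted p = 0.0549), Mcm5 (0.40 ± 0.08, adjusted p = 0.0769) and Lig1 (0.44 ± 0.10, adjusted p = 0.0936), and Ung had the highest value (0.52 ± 0.12, adjusted p = 0.102). Without LD-F1 replicate 1 or LD-F1 replicate 2 more of the 44 genes were called higher, and more of all tested genes were called as well. Each such fit leaves 1 LD-F1 library, so the spread between the LD-F1 pair drops out of the test. The median of the 44 genes was 0.23 without LD-F1 replicate 1 and 0.35 without LD-F1 replicate 2. By sub-complex the medians ran from 0.18 for the clamp and its loader, where Rfc5 was highest at 0.20 and Rfc2 lowest at 0.10, to 0.39 for the chromatin group. In the helicase Gins1 was highest (0.46) and Gins2 lowest (0.10), among loading and firing genes Cdc6 (0.44) and Orc1 (0.04), and among polymerases Pola1 (0.46) and Prim1 (0.15).

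The proportions of the 6 ring subunits to each other held closer than their levels. As shares of their summed CPM per kilobase of transcript, Mcm6 took 30.2% and 29.3% with LD-F1_b EVs, 28.2% and 31.1% with LD-F1 EVs and 27.5% and 26.6% with PBS. Mcm2 took 8.79% and 8.84% with LD-F1_b EVs, 8.98% and 8.92% with LD-F1 EVs and 9.69% and 9.54% with PBS. Some partner ratios differed without overlap, as descriptions with no test, while Pole per Pole2 and Lig1 per Fen1 overlapped in every comparison. How often ratios of other gene pairs differ without overlap was not computed. Counts of Cdc7 per Dbf4 were 0.369 and 0.344 with LD-F1_b EVs, 0.306 and 0.298 with LD-F1 EVs and 0.509 and 0.393 with PBS. Cdt1 per Gmnn, the gene of its inhibitor geminin, was 4.26 and 5.12 with LD-F1_b EVs, 5.85 and 5.66 with LD-F1 EVs and 3.84 and 3.87 with PBS. Levels per kilobase were highest in PBS for Pcna, Mcm6 and Cdt1 (124, 105.2 and 104.5 CPM per kilobase) and lowest for Prim2, Pola1 and Fen1 (4.35, 4.46 and 4.46).

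Wider lists, drawn up with earlier results of these data known, were read for comparison. Of 36 other replication genes tested, 18 fell with LD-F1 EVs and 14 with LD-F1_b EVs, and 0 rose. Among all tested genes 9.87% fell with LD-F1 EVs and 4.54% with LD-F1_b EVs. Atad5, which unloads the clamp, had 21.8 and 18.8 normalised CPM with LD-F1_b EVs, 18.1 and 13.8 with LD-F1 EVs and 42.9 and 46.0 with PBS, and fell by 1.48 with LD-F1 EVs and by 1.13 with LD-F1_b EVs. Wdhd1, which links the helicase to polymerase alpha, fell by 1.32 on the log2 scale with LD-F1 EVs and by 0.98 with LD-F1_b EVs. Ticrr, needed for origin firing, fell by 1.09 with LD-F1 EVs and by 0.84 with LD-F1_b EVs. Dnmt1, which copies methylation onto the new strand, fell by 1.004 with LD-F1 EVs and by 0.73 with LD-F1_b EVs. Only Ticrr of these 4 lost a call, with LD-F1_b EVs and on dropping any 1 LD-F1_b or PBS library (adjusted p up to 0.122). The LD-F1_b count of 14 was 5 and 3 without LD-F1_b replicate 1 and replicate 2, and 4 and 6 without PBS replicate 1 and replicate 2.

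Other genes of nucleotide metabolism moved in either direction. Of 33 tested, 6 fell and 4 rose with LD-F1 EVs, and 5 fell and 2 rose with LD-F1_b EVs, with medians of 0.00 and 0.01. The rises are near the background of 11.4% of all tested genes with LD-F1 EVs and 6.44% with LD-F1_b EVs, and the falls stand beside backgrounds of 9.87% and 4.54%. Mthfd2, a mitochondrial enzyme of one-carbon metabolism, had 172 and 178 normalised CPM with LD-F1_b EVs, 198 and 242 with LD-F1 EVs and 71.3 and 77.9 with PBS. It rose by 1.56 on the log2 scale with LD-F1 EVs (adjusted p = 1.23e-06) and by 1.23 with LD-F1_b EVs (adjusted p = 2.02e-05). Impdh1, of guanine nucleotide synthesis, rose by 0.60 with LD-F1 EVs and by 0.51 with LD-F1_b EVs. Umps, of pyrimidine synthesis, and Shmt1, of one-carbon metabolism, fell by 0.60 and 0.43 with LD-F1 EVs and by 0.53 and 0.38 with LD-F1_b EVs. Most of these counts moved on leaving out 1 library: with LD-F1 EVs 12 rose without LD-F1 replicate 1, 2 rose without either LD-F1_b library or either PBS library, and 3 fell without PBS replicate 2. With LD-F1_b EVs 9 fell and 5 rose without either LD-F1 library, 0 fell without LD-F1_b replicate 1, PBS replicate 1 or PBS replicate 2, 1 fell without LD-F1_b replicate 2, and 1 rose without LD-F1_b replicate 2 or either PBS library. Shmt1 lost its LD-F1 call without PBS replicate 1 (adjusted p = 0.143) or PBS replicate 2 (0.0647), and the LD-F1_b calls of Umps, Impdh1 and Shmt1 were each lost without 3 or more of the LD-F1_b and PBS libraries (adjusted p up to 0.0762, 0.109 and 0.316).

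Cell cycle regulators fell in 12 of 20 cases and rose in 2 with LD-F1 EVs, and fell in 7 and rose in 1 with LD-F1_b EVs. The number that rose is no larger a share than the background of 11.4% with LD-F1 EVs and 6.44% with LD-F1_b EVs, whereas the backgrounds for falling were 9.87% and 4.54%. E2f8, an atypical E2F that represses S-phase genes, had 16.3 and 12.9 normalised CPM with LD-F1_b EVs, 10.7 and 10.6 with LD-F1 EVs and 33.3 and 32.1 with PBS. It fell by 1.62 with LD-F1 EVs (adjusted p = 1.46e-05) and by 1.16 with LD-F1_b EVs (adjusted p = 0.000353). E2f1, an activating E2F, had 56.8 and 56.7 normalised CPM with LD-F1_b EVs, 44.97 and 48.7 with LD-F1 EVs and 89.9 and 77.9 with PBS, and fell by 0.84 with LD-F1 EVs and by 0.56 with LD-F1_b EVs. Cyclin E genes, which drive entry into S phase, were lower too: Ccne1 fell by 1.01 with LD-F1 EVs and by 0.67 with LD-F1_b EVs, and Ccne2 fell by 0.81 with LD-F1 EVs and had -0.45 ± 0.16 (adjusted p = 0.0952) with LD-F1_b EVs. E2f7 fell by 1.08 with LD-F1 EVs and had -0.71 ± 0.25 (adjusted p = 0.0924) with LD-F1_b EVs. Cdkn1a, the gene of the cyclin-dependent kinase inhibitor p21, had 216 and 209 normalised CPM with LD-F1_b EVs, 217 and 241 with LD-F1 EVs and 138 and 142 with PBS. It rose by 0.71 with LD-F1 EVs (adjusted p = 0.000111) and by 0.61 with LD-F1_b EVs (adjusted p = 0.000783). Cdk6, a G1 kinase, rose by 0.99 with LD-F1 EVs and had 0.38 ± 0.20 (adjusted p = 0.284) with LD-F1_b EVs.

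Of these regulators, E2f7 lost its LD-F1 call without PBS replicate 2 (adjusted p = 0.0988), and Ccne2 and Cdk6 theirs without PBS replicate 1 (0.0532 and 0.0597). With LD-F1_b EVs E2f1 lost its call without either LD-F1_b library or PBS replicate 1, and Ccne1 on dropping any 1 LD-F1_b or PBS library (adjusted p up to 0.124 and 0.113). The LD-F1 count of 12 regulators that fell was 7 without PBS replicate 2, and of the 2 that rose 1 was left without PBS replicate 1. With LD-F1_b EVs the 7 that fell became 2 on leaving out LD-F1_b replicate 1 or PBS replicate 2, 1 on leaving out LD-F1_b replicate 2 or PBS replicate 1, and 2 rose without either LD-F1 library.

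Genes of G2 and M phase fell in 15 of 18 cases with LD-F1 EVs and in 4 of 18 with LD-F1_b EVs, and 0 rose. The background was 9.87% of all tested genes lower with LD-F1 EVs and 4.54% with LD-F1_b EVs. The count with LD-F1 EVs was 9 without PBS replicate 2. With LD-F1_b EVs it was 1 without LD-F1_b replicate 1, 0 without LD-F1_b replicate 2, PBS replicate 1 or PBS replicate 2, and 12 without either LD-F1 library. Mki67, the proliferation marker Ki-67, had 206 and 160 normalised CPM with LD-F1_b EVs, 163 and 99.1 with LD-F1 EVs and 274 and 278 with PBS. Its EV libraries spread widely, and it fell with LD-F1 EVs (-1.08 ± 0.22, adjusted p = 0.0127, 0.0597 without PBS replicate 1 and 0.0624 without PBS replicate 2) and did not pass with LD-F1_b EVs (-0.59 ± 0.22, adjusted p = 0.145). Top2a, the topoisomerase that untangles sister chromosomes, had 246 and 225 normalised CPM with LD-F1_b EVs, 187 and 187 with LD-F1 EVs and 291 and 302 with PBS, falling by 0.67 with LD-F1 EVs and by 0.33 with LD-F1_b EVs. The mitotic genes Kif11, Aurkb and Bub1b (a spindle motor, a mitotic kinase and a spindle checkpoint kinase) fell by 0.69, 0.67 and 0.56 with LD-F1 EVs and by 0.50, 0.54 and 0.43 with LD-F1_b EVs. The LD-F1_b calls of these 3 and of Top2a were each lost without LD-F1_b replicate 2, PBS replicate 1 or PBS replicate 2, and 3 of the 4 also without LD-F1_b replicate 1 (adjusted p up to 0.265 for Top2a).

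**Figure D5:**
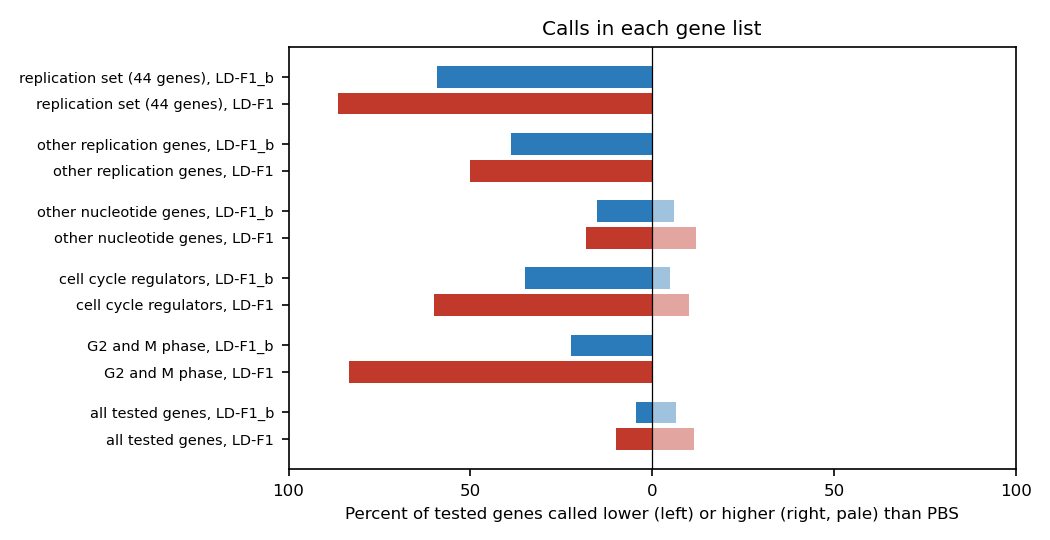
Percent of tested genes called lower (left) or higher (right, pale) than PBS (horizontal axis) in each gene list, for LD-F1_b EVs in blue above LD-F1 EVs in red. The 44 replication genes, the other replication genes and the G2 and M phase genes have bars to the left alone. The other nucleotide genes have 6 lower and 4 higher of 33 with LD-F1 EVs.

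Of 3 tested dendritic cell markers, 1 passed in the comparisons with PBS. Xcr1, a marker of dendritic cells, had 4.80 and 4.08 normalised CPM with LD-F1_b EVs, 7.72 and 8.39 with LD-F1 EVs and 1.31 and 1.13 with PBS, and rose with both EVs. The other tested markers of that list, Cd209a and Zbtb46, had at most 1.52 normalised CPM in any library and did not pass: with LD-F1 EVs their log2 fold changes were -1.26 ± 0.81 (adjusted p = 0.313) and -0.90 ± 0.67 (adjusted p = 0.382), and with LD-F1_b EVs 0.42 ± 0.68 (adjusted p = 0.760) and -0.27 ± 0.62 (adjusted p = 0.838). Clec9a had at most 5 counts and Siglech 0. Summed dendritic cell markers were 6.81 and 6.15 normalised CPM with LD-F1_b EVs, 8.99 and 8.89 with LD-F1 EVs and 3.13 and 2.90 with PBS, most of it Xcr1 in the EV groups. The part of these markers in the levels of the replication genes was not tested.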

How the data were processed

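Gene-level read counts of 6 libraries, 2 for each of 3 groups, were analysed. The deposited values are whole-number counts per gene, not normalised. The submitters' processing notes name build GRCm39 and the tools featureCounts 1.5.0-p3, HISAT2 2.0.5, fastp and StringTie 1.3.3b, while the table's identifiers are those of the C57BL/6NJ annotation, and its positions are printed unchanged. The sources used here do not state the strand setting or multi-mapping rules, so genes with close copies or overlapping neighbours are uncertain.

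Counts were fitted in R 4.3.3 with edgeR 4.0.16 (filterByExpr, TMM, robust quasi-likelihood fit, a mean per group, 3 residual degrees of freedom, 12740 genes kept with 99.9% of counts), and p-values were adjusted by Benjamini-Hochberg over all genes tested. SEs were derived from the F statistic. The script was tested on simulated data. Members, sub-complexes and lists were chosen with earlier results of these data known. Genes given library by library are a named set and the lowest and highest of each sub-complex; from each wider list the 4 called genes with the largest change are named in each comparison, besides E2f1, E2f8, Ccne1, Ccne2, Cdkn1a, Mki67 and Top2a. Some genes that this rule would name are not reported here. Alternatives were RLE and unscaled totals, DESeq2 1.42.0, no filter and a fit of only the groups compared. Further ones were each library left out, a replicate block and a gene length offset (loess of R itself, span 0.5, prior count 2). Erythroid, fibroblast, lymphoid and mast cell marker lists summed to at most 10.3, 1.05, 0.441 and 0 normalised CPM in a library.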

Additional observations from a re-analysis of the deposited data

How the results depend on the processing

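No direction of a called replication gene reversed under any alternative run, and the number rising over PBS stayed 0. The number lower with LD-F1 EVs (38) ran from 29 to 41 on leaving out 1 library; the number of all genes called (2707) ran from 1213 to 4497. For LD-F1_b EVs the number lower (26) ran from 7 to 37, and all genes called (1398) from 401 to 3142 and 3098 when only the groups compared were fitted. LD-F1_b against LD-F1 gave 0 genes higher as reported; it gave 1 with library totals alone, 2 with DESeq2, 5 without a filter, 3 with a gene length offset, 2 with that offset and a replicate block, and 0 to 15 on leaving out 1 library. All genes called there (54) were 97 with DESeq2, 185 without a filter, 33 with only the groups compared, 107 with either length offset and 0 to 1152 on leaving out 1 library. Unscaled totals moved the median of all genes to -0.10 (LD-F1) and -0.07 (LD-F1_b). Replicate differences of the groups correlated by 0.084, 0.004 and -0.023. Such values show no strong shared replicate effect, but cannot tell whether libraries of the same number came from the same mice. The replicate block gave 38, 24 and 0 calls. It lost Rfc4 and gained Fen1 with LD-F1 EVs, and lost Rfc2 and Rfc5 with LD-F1_b EVs. Rpa3 and Fen1 had the lowest totals, 727 and 761 counts in all. Of the 44 genes Rpa3 also had the highest log2 difference of LD-F1 replicate 2 minus replicate 1 (0.62). The cause of the shifts between settings was not tested, nor was the part of depth in them.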
